A study of Mus musculus with 19 samples.

Results

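Fam163b and Fam163a, the paralogous genes of the mouse family named for sequence similarity 163, were followed in 3 brain regions of SCA17 knock-in (KI) mice and wild-type (WT) mice. They are 2 of the 41128 genes in the count table, and both were among the 16841 genes that had enough counts to be tested. Fam163b was picked because its level was higher in the KI cerebellum and lower in the KI striatum than in WT, so its values in those comparisons are given as a description with no test. Fam163a was added as its paralog, whatever its own values.

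Spinocerebellar ataxia type 17 arises when the glutamine repeat of TBP is too long. TBP binds the TATA box and takes part in transcription initiation throughout the body. The cerebellum, with its Purkinje and granule cells, is the region best known to suffer in this disease. FAM163A is also known as neuroblastoma-derived secretory protein, and both paralogs encode small proteins that have been little studied in the brain.

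Messenger RNA was sequenced in 19 libraries from the prefrontal cortex (PFC in the plots), the striatum (STR) and the cerebellum (CB). All mice were C57BL/6 and 3 months old. The KI mice carried the expanded Tbp allele in the germ line, from a floxed allele recombined with EIIa-Cre and bred on by crosses to WT, so every cell type carried it. The WT mice were age-matched. Each group held 3 libraries except KI cerebellum, which held 4. The labels give neither the sex of a mouse nor which libraries came from one mouse, and the KI mice stand for 1 allele only. Replicates are separate libraries of a group, and the p-values below measure the spread between these libraries.

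Fam163b (ENSMUSG00000009216) lies on the minus strand of chromosome 2 at chr2:27110380-27142491 of GRCm38, a span of 32112 bases. GENCODE M21 gives it 1 transcript of 3 exons and 2959 bases, with a 5′ UTR of 355 bases, a coding length of 504 bases including the stop codon and a 3′ UTR of 2100 bases. Fam163a (ENSMUSG00000015484) lies on the minus strand of chromosome 1 at chr1:156075966-156205026, a span of 129061 bases. Its 1 transcript has 5 exons and 3882 bases, with a 5′ UTR of 444 bases, a coding length of 507 bases and a 3′ UTR of 2931 bases. The coding sequence is split alike in both genes. In each, 93 coding bases stand in the exon before the last, and the last exon holds 408 coding bases in Fam163b and 411 in Fam163a, stop codon aside. The aligned coding sequences had 317 identical and 157 mismatched bases, an identity of 66.9%, with 63 gap bases. The longest run shared by the transcripts was 22 bases. Of the 2929 31-base words in the Fam163b transcript and the 3852 in the Fam163a transcript, 0 occurred in a transcript of another gene. An exact read of that length therefore tells the paralogs apart.

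The sequences just before the annotated start of each gene are shown because TBP, the protein altered in KI, acts at promoters. They come from RefSeq (GRCm38.p6), are written 5′ to 3′ on the strand of the gene, and carry the GC box GGGCGG in capitals. The first is chr2:27142492-27142727 and the second chr1:156205027-156205276, both minus strand.
Fam163b: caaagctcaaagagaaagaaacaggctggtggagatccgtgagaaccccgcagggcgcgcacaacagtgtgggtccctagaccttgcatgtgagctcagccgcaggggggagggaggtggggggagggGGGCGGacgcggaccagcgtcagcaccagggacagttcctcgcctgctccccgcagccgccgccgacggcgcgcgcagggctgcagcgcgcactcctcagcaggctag
Fam163a: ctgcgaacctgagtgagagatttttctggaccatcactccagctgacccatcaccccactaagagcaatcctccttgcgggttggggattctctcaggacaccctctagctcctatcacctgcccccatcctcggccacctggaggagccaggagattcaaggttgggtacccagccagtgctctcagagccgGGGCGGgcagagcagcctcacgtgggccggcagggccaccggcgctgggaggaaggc

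In the window of 250 bases before to 50 bases after the RefSeq start, each promoter held 1 GC box on the strand of the gene. Its first base was 122 bases upstream of the RefSeq start in Fam163b and 57 bases upstream in Fam163a. The Fam163b sequence printed above ends just before the GENCODE start, which lies 14 bases upstream of the RefSeq start. Over both strands, 35.7% of 32851 mouse promoters of this length held a GC box, 13.6% a TATA box (TATAAA) and 37.4% a CCAAT box (CCAAT). The TATA and CCAAT letters were in neither promoter on either strand. The GC content was 72% in Fam163b and 64.3% in Fam163a, against a median of 52.7% over all promoters. The Fam163b promoter held 34 CpG dinucleotides and the Fam163a promoter 14, against a median of 7. The CpG count of Fam163b was above that of 92.3% of promoters, and that of Fam163a above 63.7%. These letters are a description of the windows and not evidence that a factor binds there.

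Library totals lay between 10639110 and 17431284 counts. Tbp itself, the targeted gene, is expanded and not deleted in KI, so its counts cannot check the genotype. Its mean level was 58.5 CPM (counts divided by the library size in megacounts, with TMM scaling) in WT and 52.9 CPM in KI cerebellum, 44.4 and 40.8 CPM in striatum, and 37.4 and 33.7 CPM in prefrontal cortex. No Tbp difference passed an adjusted p of 0.05 in edgeR's quasi-likelihood test. Some libraries stood apart in marker genes of other tissue. Choroid plexus markers summed to 4974 CPM in KI cerebellum replicate 3 and 1988 CPM in WT cerebellum replicate 1, against 19.4 to 41.1 CPM in the other 5 cerebellar libraries. In striatum they summed to 1564 to 9021 CPM in WT and 4275 to 7233 CPM in KI. KI cerebellum replicate 2 held several neuronal genes at levels that no other cerebellar library reached. Crym, which encodes a thyroid hormone-binding crystallin, was at 16.7 CPM there against 0.0643 to 0.363 CPM in the other 6. Nrgn, the postsynaptic calmodulin-binding neurogranin, was at 14.0 CPM against 1.03 to 2.30 CPM, and the neuropeptide gene Vip was at 5.60 CPM against 0.162 to 0.321 CPM. These 3 genes were chosen after their values were seen. PFC WT replicate 3 stood apart in 1 gene of the noradrenergic list, Th, which encodes the tyrosine hydroxylase of all catecholamine neurons. Th was at 171 CPM there, with a lowest WT prefrontal level of 3.56 CPM and 1.36 to 2.18 CPM in the 3 KI prefrontal libraries. The whole list summed to 185 CPM in PFC WT replicate 3, 13.1 CPM in replicate 1 and 18.3 CPM in replicate 2. The list's other tested genes did not single out replicate 3, with Dbh at 0.271 to 1.01 CPM and Slc18a2 at 8.63 to 12.6 CPM over the WT prefrontal libraries.

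In WT brain both paralogs were higher in the forebrain regions than in cerebellum. Fam163b was at 12.9, 10.0 and 11.1 CPM in the 3 cerebellar libraries, at 136, 140 and 129 CPM in the striatal ones and at 175, 147 and 237 CPM in the prefrontal ones. Fam163a was at 1.86, 1.11 and 2.83 CPM in cerebellum, at 12.8, 19.3 and 17.3 CPM in striatum and at 16.8, 23.8 and 32.0 CPM in prefrontal cortex. Cerebellar libraries were the lowest for both genes with no overlap with either forebrain region, while the striatal and prefrontal ranges overlapped for Fam163a and not for Fam163b.

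**Figure D1:**
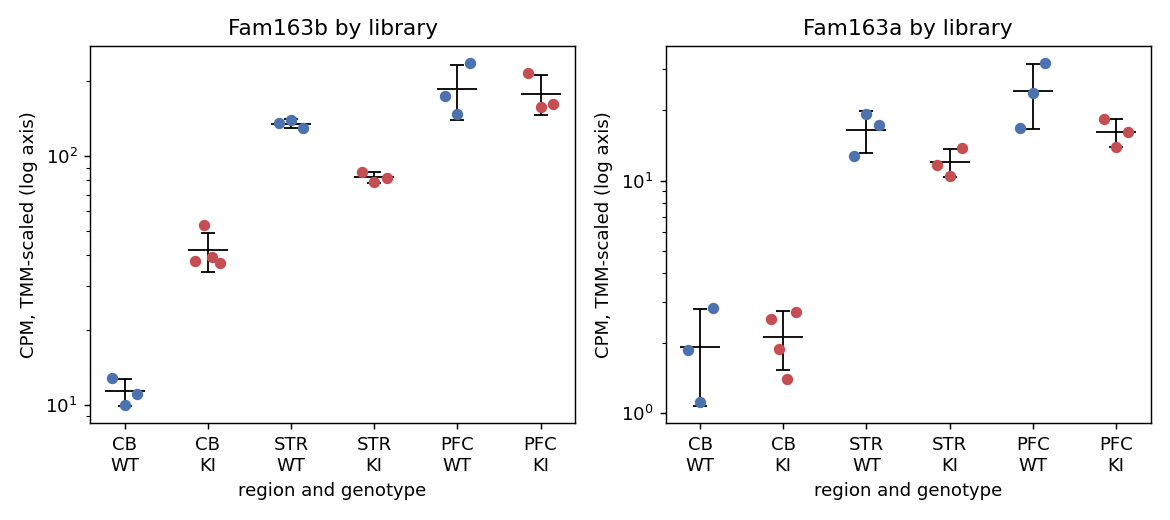
CPM of Fam163b (left) and Fam163a (right) in each of the 19 libraries on a log axis, by region and genotype, with WT in blue and KI in red, and the mean and SD of each group in black. The 4 KI cerebellar libraries sit above the 3 WT ones for Fam163b and among them for Fam163a.

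Fam163b was 11.9-fold lower in WT cerebellum than in WT striatum (log2 -3.58 ± 0.19 SE, adjusted p = 8.91e-11, edgeR quasi-likelihood with Benjamini-Hochberg adjustment over all tested genes). Fam163a was 8.58-fold lower there (log2 -3.10 ± 0.32, adjusted p = 3.2e-07). Of all tested genes, 28.7% were called lower in this comparison, so the direction of the 2 members was a common one. Against WT prefrontal cortex, Fam163b was 16.4-fold lower in cerebellum (log2 -4.04 ± 0.19, adjusted p = 3.49e-11) and Fam163a 12.6-fold lower (log2 -3.66 ± 0.32, adjusted p = 6.18e-08), where 26.9% of genes were called lower.

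The forebrain regions differed less. Fam163b was 1.38-fold lower in WT striatum than in WT prefrontal cortex (log2 -0.46 ± 0.16, adjusted p = 0.0397), and 16.4% of genes were called lower. The call was lost in 5 of 6 fits that each left out 1 of the 6 WT libraries concerned (adjusted p 0.055 to 0.247), with only the fit without WT prefrontal replicate 2 keeping it (adjusted p = 0.0123). Without WT prefrontal replicate 3, the library with the high Th level, the difference was log2 -0.25. Fam163a did not pass in this comparison (log2 -0.56 ± 0.27, adjusted p = 0.139). Replicate numbers tied the striatal and prefrontal libraries together. With them as a block across all 3 regions the adjusted p was 0.0662 for Fam163b and 0.114 for Fam163a, and with the striatal and prefrontal libraries alone, a fit added after seeing the data, it was 0.0485 and 0.0275.

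Per kilobase of exon, Fam163b was the more abundant paralog in all 19 libraries. Its mean level in WT was 3.83 CPM per kb in cerebellum, 45.7 in striatum and 63.0 in prefrontal cortex, above 47.5%, 93.1% and 95.2% of tested genes. The level of Fam163a was 0.499, 4.24 and 6.23 CPM per kb in the same order of regions, above 18.0%, 49.9% and 58.0%. The ratio of Fam163b to Fam163a per kb lay between 5.14 and 11.8 in WT cerebellum, between 9.51 and 14.0 in WT striatum and between 8.11 and 13.7 in WT prefrontal cortex. These ranges overlap between all 3 regions.

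The question of the KI comparison is which genes respond to mutant TBP in each region. In KI cerebellum Fam163b was at 37.9, 52.9, 39.4 and 37.1 CPM, from 613 to 955 counts a library, against 137 to 200 counts in WT. Every KI library was above every WT library, and replicate 2 was the highest. The group means were 41.8 ± 7.47 CPM (SD, n = 4) in KI and 11.3 ± 1.43 CPM (SD, n = 3) in WT, a 3.69-fold higher level in KI (log2 1.88 ± 0.17 SE, 95% interval 1.52 to 2.25). Fam163b is one of the 87 genes called higher in KI cerebellum, 0.517% of those tested, and one of the 980 genes whose groups did not overlap in that direction, 5.82%. The gene was picked for this difference, so these counts are not a test.

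The difference was also computed without the libraries that stood apart. It was log2 1.75 without KI replicate 2, against 1.88 with all libraries. With KI replicate 3 and WT replicate 1 left out together it was 2.02, and with all 3 left out it was 1.83. The last 2 fits were added after seeing the data. Leaving out any single cerebellar library gave 1.75 to 1.99.

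**Figure D2:**
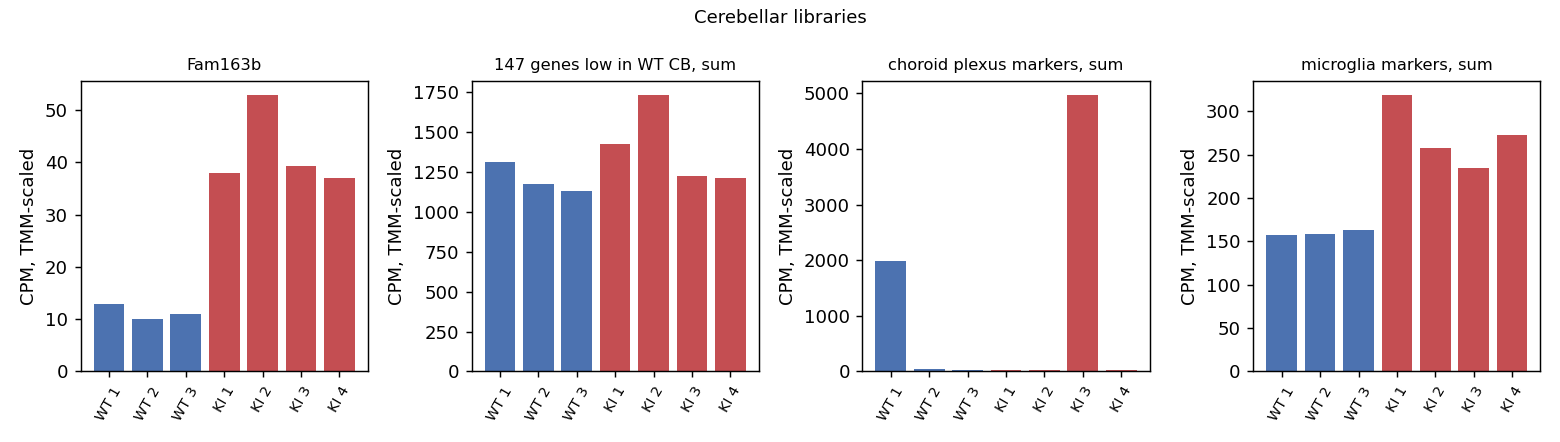
CPM in each of the 7 cerebellar libraries (WT blue, KI red, bars from 0) of Fam163b, of the sum over 147 genes low in WT cerebellum, of choroid plexus markers and of microglia markers. Fam163b is at 37.1 CPM or more in all 4 KI libraries, whereas the choroid plexus sum is high in WT 1 and KI 3 only.

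Because Fam163b is low in WT cerebellum, its KI level was set beside that of other genes of this kind. There were 537 tested genes at least 8-fold lower in WT cerebellum than in both WT forebrain regions, Fam163b and Fam163a among them. Their median KI difference in cerebellum was log2 0.55, against 0.0073 over all genes. Of the 537, 401 were positive, 93 were at or above Fam163b and 7 were called higher. Of those with a mean of 20 CPM or more over all libraries, 148 genes, the median was 0.39, 121 were positive, 8 were at or above Fam163b (itself included) and 3 were called higher. Fam163b, picked for this difference, is counted in all of these numbers, and 0.517% of all tested genes were called higher. The WT cerebellar libraries both define this group and enter its KI difference. Without the member that passed the level filter, 147 genes were left, and their summed level was 1128 to 1311 CPM in WT, 1733 CPM in KI replicate 2 and 1212 to 1427 CPM in the other KI libraries. KI replicate 2 was the highest of the 7 libraries for 84 of the 147 genes.

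In KI striatum Fam163b was at 86.5, 78.7 and 81.4 CPM, and all 3 KI libraries were below all 3 WT ones. The means were 82.2 ± 3.99 CPM (SD, n = 3) in KI and 135 ± 5.45 CPM (SD, n = 3) in WT, 0.608 of the WT level (log2 -0.72 ± 0.16 SE, 95% interval -1.06 to -0.37). It was one of the 1425 genes with non-overlapping groups in that direction, 8.46% of those tested. It was not one of the 32 genes called lower in striatum, 0.19%. Of 6 other fits on all striatal libraries it was called in 3 (DESeq2, no filter on low counts, striatal libraries alone). It was called in none of the 6 fits that left out 1 library. Fam163b was picked for this difference too, so these counts and calls are not a test.

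**Figure D3:**
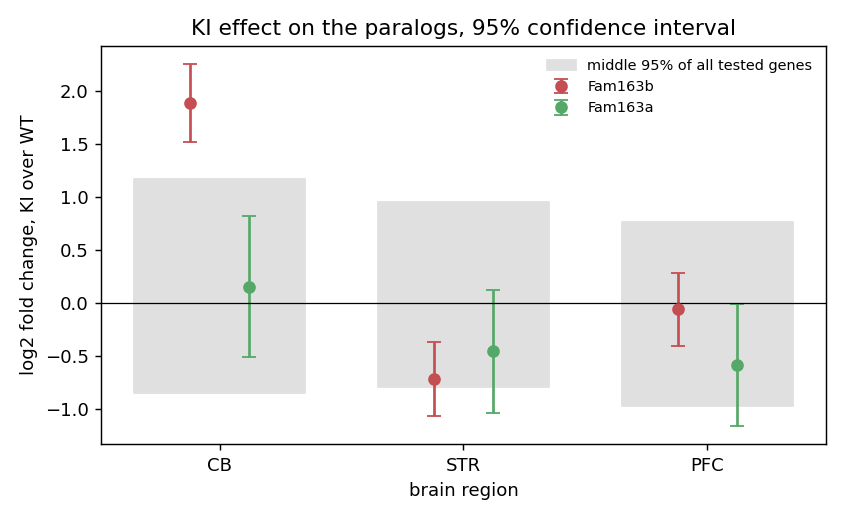
Log2 fold change of KI over WT of Fam163b (red) and Fam163a (green) in cerebellum, striatum and prefrontal cortex, with 95% confidence intervals from the edgeR fit, and a grey band for the middle 95% of all tested genes. Fam163b in cerebellum, at 1.88, is outside the band, and the other 5 values are inside it.

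In prefrontal cortex Fam163b was at 216, 157 and 163 CPM in KI, within the range of the WT libraries. The means were 179 ± 32.8 CPM (SD, n = 3) in KI and 186 ± 46.0 CPM (SD, n = 3) in WT. The difference did not pass the test (log2 -0.06 ± 0.16 SE, adjusted p = 0.999), where 0.107% of genes were called in either direction. Its 95% interval ran from -0.40 to 0.28 on the log2 scale, or 0.757-fold to 1.22-fold. Differences inside this interval were not excluded by these libraries. The sign turned when KI replicate 2 (0.017), KI replicate 3 (0.0054) or WT replicate 3 (0.15) was left out.

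Fam163a showed no difference that passed the test in any region. In KI cerebellum it was at 2.53, 1.89, 1.40 and 2.72 CPM, from 25 to 45 counts a library, and the groups overlapped. The difference was log2 0.16 ± 0.31 SE (95% interval -0.51 to 0.82, adjusted p = 0.935), and without WT replicate 2 it was -0.12. On the fold scale the interval was 0.704 to 1.77, beside 2.86 to 4.77 for Fam163b, which was picked for its difference. Of all genes, 0.831% were called in either direction in cerebellum and 0.582% in striatum. In KI striatum Fam163a was at 11.7, 10.5 and 13.8 CPM, and the groups overlapped (log2 -0.45 ± 0.28, 95% interval -1.04 to 0.13, adjusted p = 0.73). In KI prefrontal cortex it was at 18.4, 13.9 and 16.2 CPM, again overlapping WT (log2 -0.58 ± 0.27, 95% interval -1.16 to -0.0039, adjusted p = 0.84, unadjusted p = 0.0486).

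The KI difference of Fam163b in cerebellum minus that in striatum was log2 2.60 ± 0.24 SE, that in cerebellum minus prefrontal cortex 1.94 ± 0.24, and that in striatum minus prefrontal cortex -0.66 ± 0.23. These hold the comparisons it was picked on and have no test. For Fam163a the same differences of differences were 0.61 ± 0.42 (adjusted p = 0.874), 0.74 ± 0.42 (adjusted p = 0.875) and 0.13 ± 0.39 (adjusted p = 1), none of which passed edgeR's test. The last of them was -0.13 without WT prefrontal replicate 3 and -0.02 without WT striatal replicate 1. Of all genes, 0.0119%, 0.0178% and 0% were called in these comparisons. In the last, 743 genes had an unadjusted p under 0.05 in edgeR and DESeq2 called 12.

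The cerebellar level of Fam163b was closer to the forebrain levels in KI than in WT, again as a description. In KI it was 1.96-fold lower in cerebellum than in striatum, against 11.9-fold in WT, and 4.27-fold lower than in prefrontal cortex, against 16.4-fold. Between striatum and prefrontal cortex the gap was 2.18-fold in KI and 1.38-fold in WT. The per-kb ratio of Fam163b to Fam163a was 19.7, 36.9, 36.9 and 17.9 in the KI cerebellar libraries, above the 5.14 to 11.8 of WT. In KI striatum it was 7.73 to 9.84, and in KI prefrontal cortex 13.2 to 15.5.

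The sign pattern of Fam163b, higher in KI cerebellum and lower in KI striatum at an unadjusted p under 0.05 in both, was met by 30 of 16841 genes, 0.178%. The mirror pattern was met by 19 genes, while 154 genes were higher in both regions and 95 lower in both. At an unadjusted p under 0.01 the counts were 4, 1, 92 and 22, and 0 genes had the pattern of Fam163b at an adjusted p under 0.05 in both regions in edgeR. In DESeq2 1 gene had it, Fam163b itself. Fam163b was picked for this very pattern, so that it met the pattern and stood first by the larger p of the pair is no evidence about it. Nlgn1, Plcb1, Mgat5b and Fam19a5 followed in that order. Nlgn1 encodes a postsynaptic adhesion protein and had differences of 0.38 in cerebellum and -0.39 in striatum. Plcb1 encodes a phospholipase C that makes inositol trisphosphate, with 0.35 and -0.41. Mgat5b, a brain N-acetylglucosaminyltransferase, had 0.50 and -0.39, and Fam19a5, a secreted chemokine-like protein gene, had 0.27 and -0.33. All 4 passed the unadjusted threshold by the rule and none the adjusted one. Among the 30 genes, Ighg1 and Ly6c2 had larger fitted cerebellar differences than Fam163b, from WT means of 0 and 0.0218 CPM and KI means of 0.379 and 1.35 CPM, and were named after their values were seen.

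**Figure D4:**
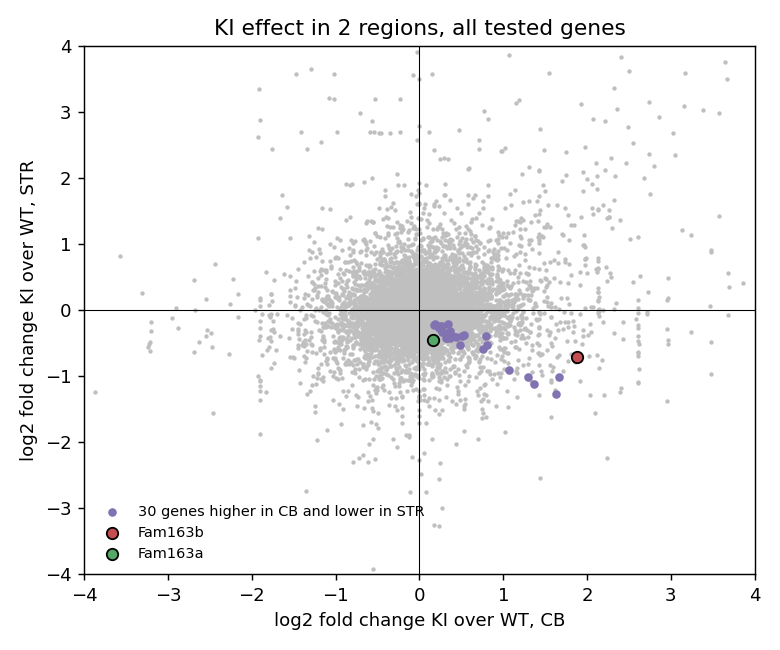
Log2 fold change of KI over WT in cerebellum (x) and striatum (y) for the tested genes (grey), the 30 genes higher in cerebellum and lower in striatum at an unadjusted p under 0.05 (purple), Fam163b (red) and Fam163a (green). Of 16841 genes, 53 lie outside the axes, which end at 4, and Fam163b is at 1.88 and -0.72.

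Over the 19 libraries, the genes whose log2 CPM was most like that of Fam163b were Nphs1 (r = 0.952), Arsb (0.951), A830018L16Rik (0.947), Zfp575 (0.944) and Cxcl14 (0.942). Nphs1 encodes nephrin, Arsb the lysosomal arylsulfatase B and Cxcl14 a chemokine. Within the 7 cerebellar libraries alone, r with these 5 was 0.786 to 0.913, and within the 6 prefrontal libraries it was -0.34 to 0.35. All 5 had a positive KI difference in cerebellum and a negative one in striatum, and A830018L16Rik passed the test in cerebellum (log2 0.90 ± 0.20 SE, adjusted p = 0.043), as the only one of them. These 5 genes were picked for likeness over the same libraries to Fam163b, itself picked for its KI differences. Their shared signs, their r within cerebellum and this adjusted p are therefore no independent evidence. Nphs1 had log2 1.66 in KI cerebellum and -1.01 in KI striatum, at low levels of 0.113 CPM in WT and 0.381 CPM in KI cerebellum, and neither difference passed the adjusted test. The genes most like Fam163a were Nrsn1 (r = 0.978), a neuronal vesicle protein gene, Fam171b (0.973), A330009N23Rik (0.973), the serotonin receptor gene Htr1f (0.972) and Git1 (0.970). The paralogs had r = 0.89 with each other over all libraries, and 0.20 within cerebellum, 0.73 within striatum and 0.54 within prefrontal cortex. The libraries share their regions, so the values over all 19 hold the gap between cerebellum and forebrain, and all are a description with no test.

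Genes around Fam163b were examined in the same comparisons. Of 40 annotated genes within 500 kb, 39 were in the table, 21 were tested, and 0 were called in any region by edgeR, where 1 had an unadjusted p under 0.05 in each region. DESeq2 called 1, Fam69b in cerebellum, which was named after its values were seen. Their median KI difference was log2 0.0283 in cerebellum and 0.0969 in striatum, against 0.0073 and -0.0073 over all genes. The nearest gene, Adamtsl2, an extracellular matrix protein gene 1.40 kb away, had 0.21 ± 0.39 SE in cerebellum and -0.41 ± 0.38 in striatum. In prefrontal cortex it had -0.95 ± 0.34 (edgeR adjusted p = 0.68) and was the 1 neighbour with an unadjusted p under 0.05 there. Slc2a6, a glucose transporter gene, had 0.28 ± 0.15 in cerebellum, and Cacfd1 had 0.03 ± 0.05. On the other side, Dbh, which encodes dopamine beta-hydroxylase, was close to 0 CPM in cerebellum (0.66 ± 1.13), Sardh, a sarcosine dehydrogenase gene, had 0.29 ± 0.19 and Vav2, a guanine nucleotide exchange factor gene, 0.32 ± 0.27. Around Fam163a, 12 genes were tested and 0 called by edgeR, with 2, 4 and 2 at an unadjusted p under 0.05 in cerebellum, striatum and prefrontal cortex. DESeq2 called 1 of them, Soat1 in striatum, also named after its values were seen. The nearest on one side were Tor1aip2, Tor1aip1 and Cep350, with 0.12, -0.03 and 0.01 in cerebellum, and on the other Tdrd5 and Gm2000 had 0.07 and -1.05.

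**Figure D5:**
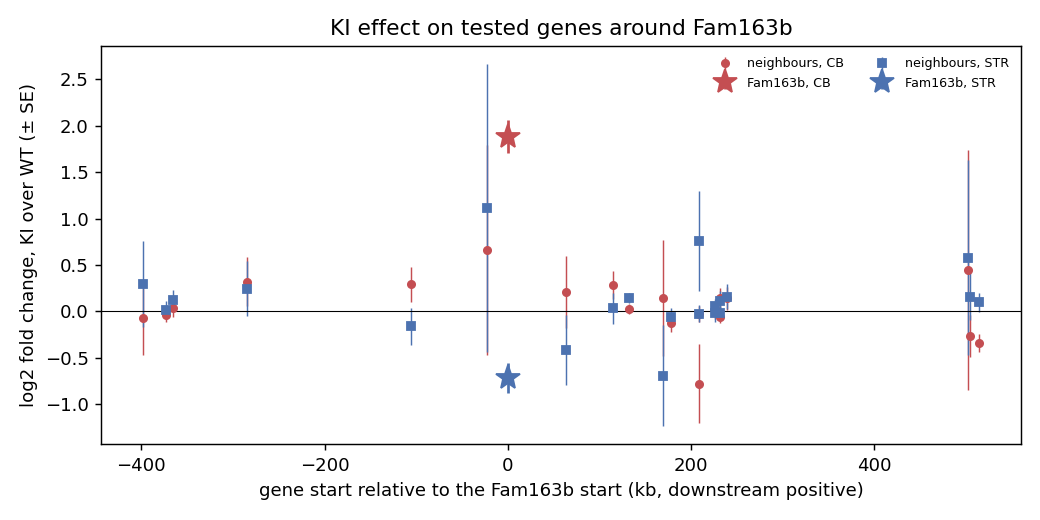
Log2 fold change of KI over WT (± SE) of the 21 tested genes within 500 kb of Fam163b, against the distance of their start from its start in kb, in cerebellum (red circles) and striatum (blue squares), with Fam163b as stars. Fam163b is at 1.88 and -0.72, and the neighbours lie between -0.78 and 0.66 in cerebellum.

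Marker genes of cell types moved in the same libraries, and fewer cells of a type and less RNA per cell cannot be told apart in these bulk samples. In KI cerebellum all 10 microglia markers were positive and 7 were called higher by edgeR, with a median of log2 0.79. DESeq2 called 9 of the 10. Over all tested genes edgeR called 0.517% higher and 0.831% in either direction. The microglia sum was 235 to 319 CPM against 158 to 163 CPM in WT. C1qa, a complement subunit gene, rose by 1.28 ± 0.14 (adjusted p = 0.000139) and Csf1r, the receptor of colony-stimulating factor, by 0.71 ± 0.13 (adjusted p = 0.0129). Of 10 Purkinje cell markers, 9 were lower and edgeR called 1, Pcp2, a Purkinje cell G-protein regulator gene, which fell by 1.16 ± 0.14 (adjusted p = 0.000196). In edgeR 7 of the 10 had an unadjusted p under 0.05, and DESeq2 called 3, Pcp2, Car8 and Rgs8. The Purkinje marker sum was 4436 to 6262 CPM in KI against 7204 to 7645 CPM in WT. Forebrain excitatory neuron markers had a median of 0.18, with 0 of 10 called by edgeR or DESeq2 and 0 at an unadjusted p under 0.05. They summed to 122 CPM in KI replicate 2, 141 CPM in KI replicate 1 and 109 to 112 CPM in the other KI libraries, and to 99.6 to 110 CPM in WT cerebellum, against 887 to 1223 CPM in WT prefrontal cortex. Bhlhe22 (41.5 CPM), Mef2c (36.1 CPM) and Cux2 (17.1 CPM) had the highest means of this list in WT cerebellum. Hippocampal neuron markers, 6 tested, had a median of 0.38, and cerebellar granule cell markers, 9 tested, one of -0.21.

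In KI striatum 11 of 12 medium spiny neuron markers were lower, with a median of -0.67. Of the 12, 0 were called by edgeR, 3 had an unadjusted p under 0.05 and DESeq2 called 1, Pde10a. Their sum was 7790 to 10740 CPM in KI and 13470 to 16140 CPM in WT. Pde10a, the phosphodiesterase of these neurons, had -1.02 ± 0.23 (adjusted p = 0.0542). In prefrontal cortex these markers summed to 426 to 1656 CPM over the 6 libraries, with PFC KI replicate 2 the highest, and 12 of 12 were positive. There 0 were called by edgeR or DESeq2, and 1 had an unadjusted p under 0.05. Whether these cell types hold Fam163b, and their part in its values, was not tested.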

How the data were processed

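RNA of cerebellum, striatum and prefrontal cortex was made into SMART-Seq v4 and Nextera XT libraries. The deposited files hold raw read counts per gene. Per the submitters' processing notes the authors used bcl2fastq 2.17.1.14, STAR 2.5.2b, HTSeq, DESeq2 1.10.1 and build GRCm38.p3, while the paper's methods name Cufflinks. The annotation release and strand setting are not given in the sources used here. A second deposited table of normalized counts was not used. Counts were tested in edgeR 4.0.16 (R 4.3.3) with TMM scaling, filterByExpr over the 6 groups and a quasi-likelihood fit to all 19 libraries (13 residual degrees of freedom), with Benjamini-Hochberg adjustment over 16841 genes and a threshold of 0.05. The steps were tested on simulated data. Replicate pairs of a group differed by chi-square per degree of freedom of 5.14 to 31.2, so each library was counted as its own sample. Log2 CPM used a prior count of 2. Of 41128 IDs, 40254 matched GENCODE M21, which gave names and lengths.

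The genes named were the members, Tbp, up to 3 tested neighbours a side, the 5 genes most alike each member, the 5 leading genes of the sign pattern and up to 4 genes of a marker list. Crym, Nrgn, Vip, Fam69b, Soat1, Ighg1 and Ly6c2 were named after their values were seen. One gene that this rule names is not reported here. The search for an interferon-stimulated response element was not run. The members and lists were chosen with earlier results of these data known. Alternatives were DESeq2 1.42.0, its size factors, no count filter, a sex covariate from sex-linked genes, single regions, replicate blocks and left-out libraries. Same-numbered KI and WT libraries of a region did not deviate together (r -0.245 to 0.172), nor did cerebellar libraries with the others, but all 6 same-numbered striatal and prefrontal pairs did (r 0.233 to 0.368).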

Additional observations from a re-analysis of the deposited data

Results flagged for a closer look

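Among 29 values tested for a library far from the others of the KI cerebellum group, 2 passed, and chance alone passes about 1 in 20. Fam163b was at 52.9 CPM in replicate 2 against 37.1 to 39.4 CPM in the other 3, and that library also held Crym, Nrgn and Vip above the other cerebellar libraries. It was also the highest cerebellar library for 84 of 147 genes low in WT cerebellum. The forebrain excitatory neuron markers summed to 122 CPM there against 141 CPM in replicate 1. WT cerebellum itself held Bhlhe22, Mef2c and Cux2 of that list at 41.5, 36.1 and 17.1 CPM. That sum therefore cannot decide whether the library held forebrain tissue, which was not tested. Tor1aip1, a neighbour of Fam163a, was at 47.9 CPM in replicate 1 against 37.5 to 38.8 CPM. The KI difference of Fam163b was positive in every cerebellar KI library and negative in every striatal one relative to all WT libraries of the region, a gap of log2 2.60, and this difference was not tested because the gene was picked for it.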

How the results depend on the processing

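Of 281 values under alternative settings, 231 kept their direction and side of the threshold or, for counts, stayed within 1.5 times or, for values with no test, moved by less than 1 SD of the replicates. Fam163b in KI cerebellum, a value with no test, held its size in all 15 (log2 1.75 to 2.02). It was called in each of them, but it was picked for this difference, so those calls are no support. In KI striatum, where it was a value with no test, its size held in all 12 (-0.76 to -0.69), but 3 of them called it and the reported fit did not. It was picked for this difference as well, so those calls are no support either. Single left-out libraries turned the sign of Fam163a in cerebellum (range -0.12 to 0.51), Fam163b in prefrontal cortex (-0.22 to 0.15) and the striatum minus prefrontal difference of Fam163a (-0.13 to 0.33). They moved the WT striatum minus prefrontal difference of Fam163b over -0.61 to -0.25, with the call lost in 5 of 6. Under them the genes called were 48 to 94 higher and 23 to 64 lower in cerebellum, 29 to 77 and 6 to 44 in striatum, and 4 to 15 and 1 to 2 in prefrontal cortex. The lowest came without WT 3 (48) and WT 2 (23) in cerebellum, KI 3 (29) and WT 2 (6) in striatum, and WT 1 or WT 2 (4) in prefrontal cortex. DESeq2 called 175 and 161 genes in cerebellum, 112 and 102 in striatum and 33 and 19 in prefrontal cortex, against 87 and 53, 66 and 32, and 15 and 3 in edgeR. With each region alone the counts were 88 lower in cerebellum, 31 and 15 in striatum and 0 and 0 in prefrontal cortex. Without 3 cerebellar libraries (KI 2, KI 3 and WT 1), an alternative added after seeing the data, 51 genes were called higher and 21 lower. At an unadjusted p under 0.01, 4 genes had the sign pattern of Fam163b. The causes were not tested.

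With replicate number as a block within each region, 42 genes were called higher in striatum, and 8 higher and 1 lower in prefrontal cortex. The block across regions gave -0.44 for Fam163b and, with striatum and prefrontal cortex alone, -0.53 for Fam163a in the WT striatum minus prefrontal difference. No other call of a member changed in the comparisons each block was run on, which were the KI differences for the block within regions, and the WT region differences and the differences of differences of Fam163a for the block across regions. Groups of 3 or 4 libraries limit what can be seen, and Fam163a in cerebellum rests on 17 to 45 counts a library.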
